A study of Mus musculus with 6 samples.

Results

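The alpha- and beta-tubulin genes Tuba1a, Tuba1b, Tuba1c, Tuba4a, Tubb2a, Tubb2b, Tubb3, Tubb4b, Tubb5 and Tubb6 were followed in 2T3 cells, a clonal mouse pre-osteoblast line, between static culture and a rotating wall vessel. Every probe set that the platform's gene table maps to 1 of these 10 genes was taken, also where it is shared with another gene. This gave 23 of 45037 probe sets, 8 for the 4 alpha genes and 15 for the 6 beta genes. Of the 23 probe sets, 5 are shared with a pseudogene or predicted gene: both of Tuba1c and 1 of Tuba1a with Gm6682, the only one of Tuba1b with Gm5620, and 1 of Tubb2b with Tubb2a-ps2. Probe sets whose names end in x_at or s_at hold probes that can match several related transcripts, and 9 of the 23 are of these kinds, so members of this family can share signal.

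Total RNA was hybridised to 1 Affymetrix array per sample, with 3 static and 3 rotated samples of passage 8-10, all cultured for 3 days. The rotating wall vessel turns a chamber full of medium so that cells stay suspended, and models microgravity on the ground. Both groups are the same unmodified line with no other agent named, and whether samples came from separate cultures is not stated, so the spread behind each p-value may be technical. The titles of the second group give the condition only by the letter R, which was read as rotated. For static 2 and static 3 the labels conflict: the title says static culture and the source says simulated microgravity. The titles were followed. Of the osteoblast markers, Col1a1 and Col1a2 gave deposited signals of 3316 to 10634 and of 22048 to 29557 on the 6 arrays, while Alpl and Ibsp stayed at or below 189.2 on each. The 10 measured of 13 listed osteoblast markers summed to 48130 to 51019 in static and 35601 to 42998 in rotated samples. Most of each sum came from Col1a1, Col1a2 and Cdh11, and the lowest sum was that of rotated 1. In the limma fit without the filter on dim signals, 4 of the 10 measured markers were lower in rotated samples at an unadjusted p under 0.05. At that threshold stood 7.04% of all 45037 probe sets, both directions together. Phex, too dim for the main test, and Dmp1 stood higher in value (0.35 and 0.39). The part of these markers in the tubulin results was not tested. Of the 11 neuron markers, relevant because Tubb3 is known from neurons, 8 were too dim to test, and their summed signal was 391 to 788 in static and 383 to 493 in rotated samples. In RNA from whole cultures, fewer cells that express a gene and less RNA per cell cannot be told apart.

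Alpha- and beta-tubulin form the heterodimers from which microtubules are built, and these carry transport, shape the cell and form the mitotic spindle. Vertebrates have several genes for each chain, whose products differ mainly in the acidic tail at the end of the protein. Cells hold free tubulin in check by degrading tubulin mRNA when unpolymerised dimers are plentiful, a feedback known as tubulin autoregulation.

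No tubulin probe set passed the test after adjustment. By value, the tested probe sets of Tuba4a, Tuba1c and Tubb4b stood higher in the rotated samples and those of Tuba1a, Tuba1b, Tubb2a, Tubb2b, Tubb3 and Tubb5 lower, while Tubb6 had 1 of each. The largest difference upward was in Tuba4a, whose main probe set was 2.35-fold higher (log2 difference 1.23 ± 0.23, SE, n = 3 per group). The largest downward differences were in Tubb2b, 2.27-fold lower on a shared probe set (-1.18 ± 0.38), and in Tubb5, 2.25-fold lower on 1 of its 2 probe sets (-1.17 ± 0.38). Of the 23 probe sets 21 passed the filter on dim signals, 10 of them higher and 11 lower in value (52.6% of all tested were higher), and limma (Benjamini-Hochberg adjustment over all 27022 tested probe sets) called 0 of the 21, against 0% of all tested. The smallest adjusted p among them was 0.428. Before adjustment 3 of 21 had a p under 0.05, 1 higher and 2 lower, beside 8.25% of all tested probe sets (4.34% higher and 3.9% lower). With the replicate number as a block the count was 5 of 21, beside 14.6% of all tested, and the smallest adjusted p was 0.142, so 0 of 21 were called, beside 0.0074% of all tested.

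Both groups hold an array that stands apart. In rotated 1 the signal of the actin controls was 3.21 times as high at the 3' as at the 5' end, against 1.29 to 1.57 times on the other 5 arrays. The 10th percentile of the deposited signals stood at 22.1 in static 1 and between 4.5 and 7.2 elsewhere. Both arrays correlated least with the others, at a mean of 0.914 and 0.918 against 0.942 to 0.948. Values without 1 or both of them are given for the members and list genes named below where leaving both out turned the sign or moved the value by over 1.5 times, and for some others; the part of RNA quality in the results was not tested.

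**Figure D1:**
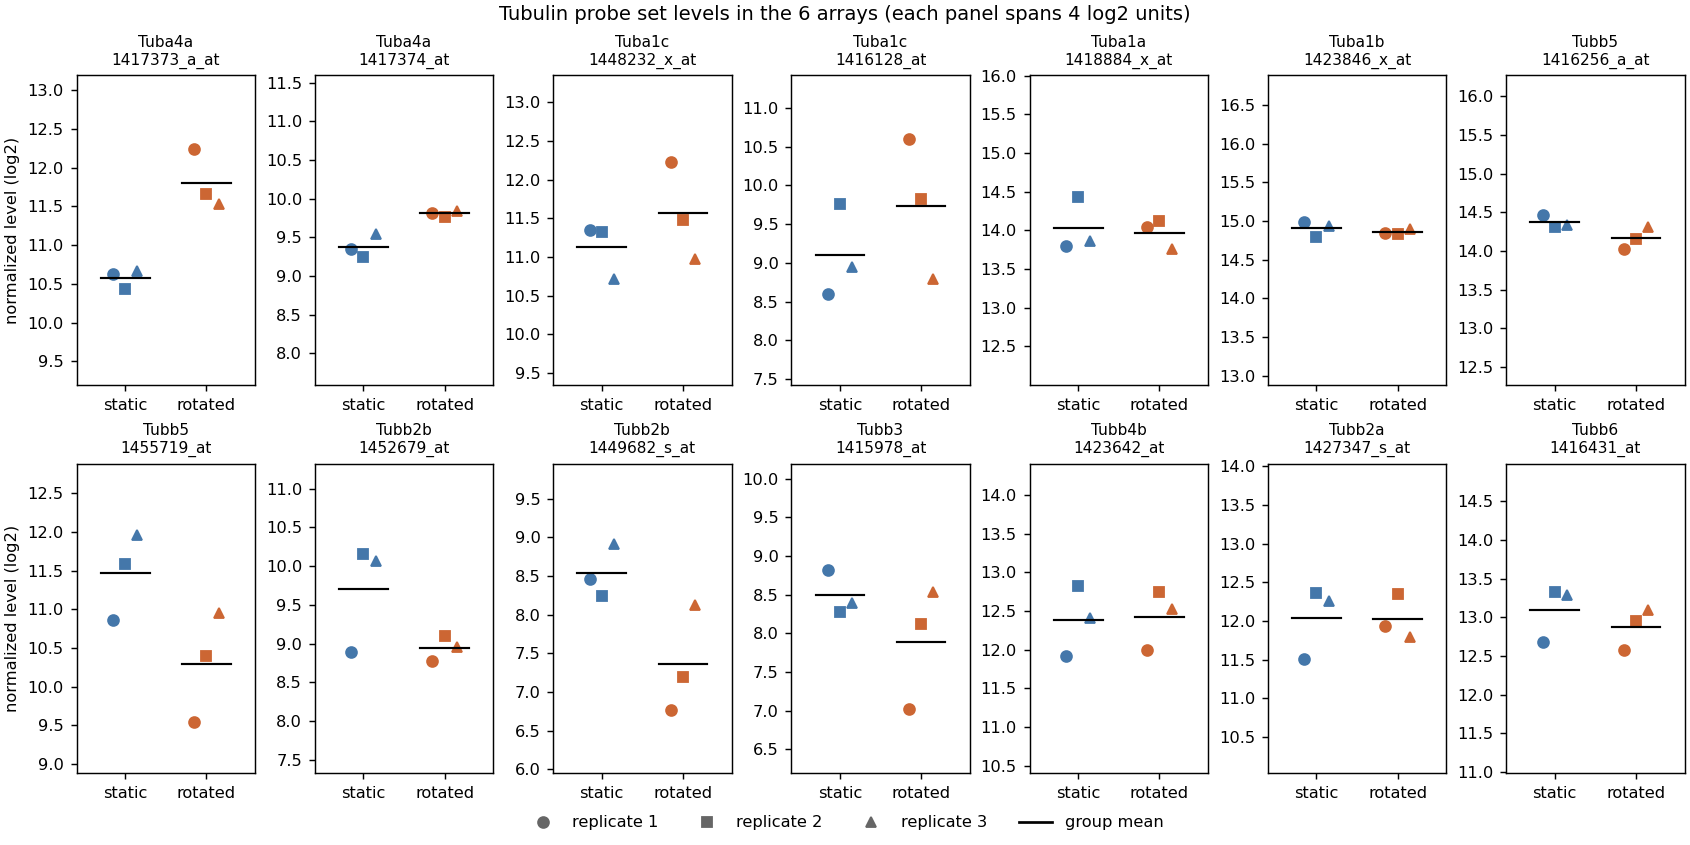
Normalized log2 levels of 14 tubulin probe sets in the 3 static (blue) and 3 rotated (orange) arrays; symbols give the replicate number, lines the group means, and each panel spans the same range of 4 log2 units. The rotated values of both Tuba4a probe sets lie above all static values, those of the shared Tubb2b probe set lie below them, and the remaining panels overlap.

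Among the alpha-tubulins, Tuba4a encodes an isotype that lacks the terminal tyrosine encoded by most alpha-tubulin genes. Its probe set 1417373_a_at had deposited signals of 1515, 1366 and 1647 in static 1, 2 and 3, and of 5239, 3241 and 2972 in rotated 1, 2 and 3. The group means were 1509 ± 140 and 3817 ± 1239 (SD, n = 3), and the lowest rotated array lay above the highest static one. On the normalized log2 scale the static levels were 10.62, 10.44 and 10.67 and the rotated levels 12.24, 11.66 and 11.53. By p this probe set ranked at place 25 of 27022 in the limma fit (unadjusted p 0.000401, adjusted p 0.428), and the adjusted p ran from 0.0572 to 0.901 over the alternatives. The difference was 1.02 ± 0.19 without rotated 1, 1.04 ± 0.20 without static 1 and rotated 1 together, and 1.19 ± 0.38 without static 2 and static 3.

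The other Tuba4a probe sets also stood higher in value, by less. Probe set 1417374_at had normalized log2 levels of 9.35, 9.24 and 9.54 in the static arrays and 9.82, 9.77 and 9.84 in the rotated ones. The groups did not overlap, and the difference was 0.43 ± 0.21 (limma adjusted p 0.610), between 0.33 and 0.53 over all alternatives. The dim probe set 1417375_at showed 0.66 ± 0.67, from deposited signals of 42.5, 26.6 and 68.7 in static and 153.9, 13.5 and 97.1 in rotated samples. Its static mean, 5.83, lay under the cutoff of 5.96 for dim signals, so it was tested only through its rotated samples. Its groups overlapped, and without static 1 and rotated 1 its sign turned (-0.10). The size of the Tuba4a difference thus ran from 1.35-fold to 2.35-fold between the 2 brighter probe sets of the same gene.

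Tuba1c, a widely expressed alpha-tubulin, stood higher in value on both probe sets, but mainly through rotated 1. Probe set 1416128_at, shared with Gm6682, had normalized log2 levels of 8.60, 9.77 and 8.94 in static and 10.60, 9.83 and 8.79 in rotated samples. The groups overlapped, and rotated 3 lay below 2 of the 3 static arrays. Its difference was 0.64 ± 0.46 (limma adjusted p 0.685), 0.21 without rotated 1, and -0.05 without static 1 and rotated 1 together. Probe set 1448232_x_at, shared with the same gene, had levels of 11.34, 11.33 and 10.72 in static and 12.23, 11.48 and 10.98 in rotated samples. Each rotated array was above the static array of its own number, by 0.88, 0.15 and 0.26, yet the groups overlapped (0.43 ± 0.32, adjusted p 0.694, 0.10 without rotated 1, and 0.21 without static 1 and rotated 1 together). The mean level of the 8 alpha probe sets against the static mean was 0.22 in rotated 2 and 0.19 in rotated 3 but 0.77 in rotated 1, whose actin ratio was high.

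Tuba1a, the alpha-tubulin of developing neurons, and Tuba1b, the alpha-tubulin of most dividing cells, differed by less than their errors. Probe set 1418884_x_at of Tuba1a had levels of 13.80, 14.44 and 13.86 in static and 14.04, 14.12 and 13.76 in rotated samples (-0.06 ± 0.20). Its probe set 1433584_at, shared with Gm6682, stood at -0.15 ± 0.35. Probe set 1423846_x_at of Tuba1b, shared with Gm5620, had levels of 14.99, 14.79 and 14.93 against 14.85, 14.83 and 14.89 (-0.05 ± 0.13). The direction of the bright probe sets of Tuba1a and Tuba1b turned with the scaling, at 0.15 and 0.20 with the values as deposited and 0.29 and 0.34 with median centring. Without static 1 and rotated 1 together the differences were -0.21 for 1418884_x_at, 0.019 for 1433584_at and 0.0023 for 1423846_x_at. The median over the 8 alpha probe sets was 0.43, beside 0.03 over all 27022 tested probe sets, and it was 0.13 without rotated 1 and 0.01 without static 1 and rotated 1 together. With each gene taken by its brightest tested probe set, the median of the 4 alpha genes was 0.19, with 2 higher and 2 lower.

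**Figure D2:**
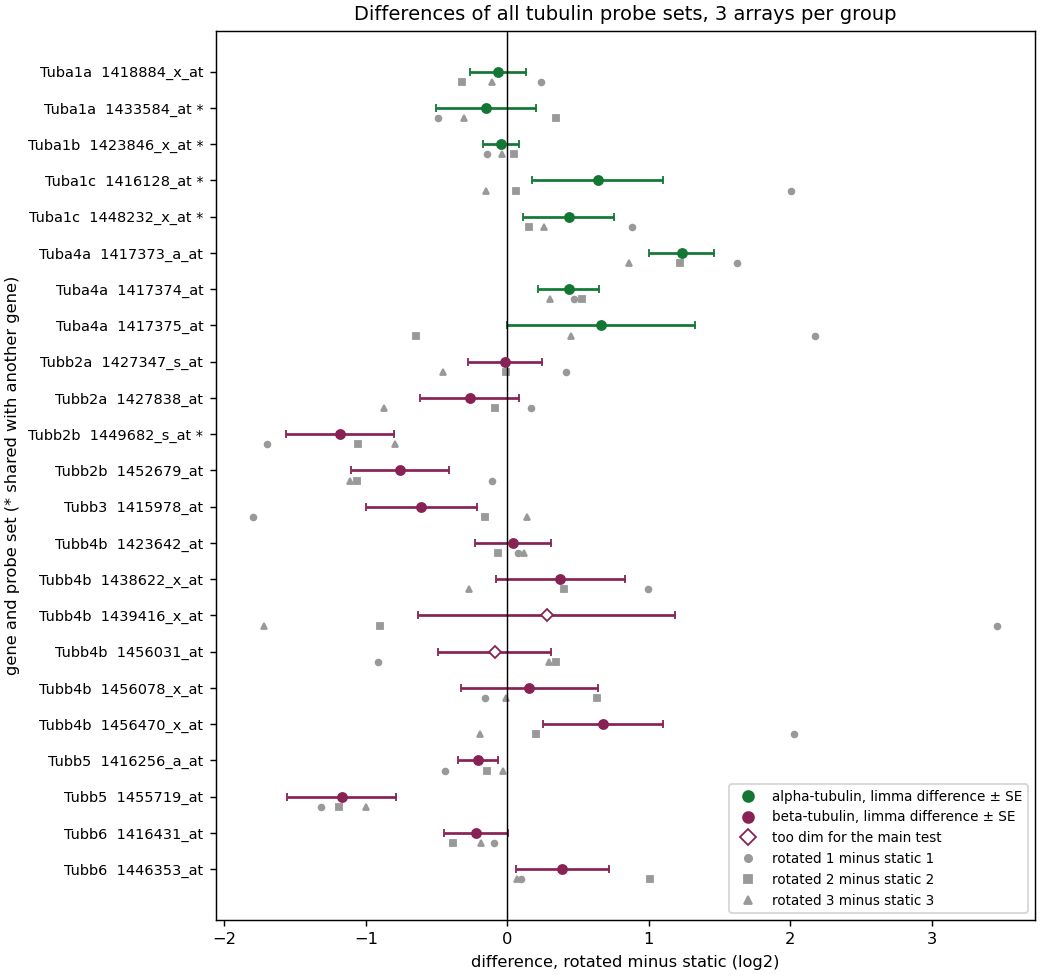
Difference between rotated and static samples on the log2 scale for all 23 tubulin probe sets, as limma difference ± SE, with the difference between arrays of the same replicate number as small grey symbols below each. Tuba4a probe set 1417373_a_at (1.23) stands farthest to the right of 0 among the alpha-tubulins, and Tubb2b probe set 1449682_s_at (-1.18) and Tubb5 probe set 1455719_at (-1.17) farthest to the left; open symbols mark the 2 probe sets too dim for the main test.

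Among the beta-tubulins, Tubb5 encodes the class I isotype found in nearly all cells. Its probe set 1455719_at had deposited signals of 1775, 3104 and 3900 in static 1, 2 and 3 and of 668.8, 1334 and 1993 in rotated 1, 2 and 3. The normalized log2 levels were 10.86, 11.58 and 11.96 against 9.54, 10.39 and 10.96, so the highest rotated array lay just above the lowest static one. Each rotated array was below the static array of its own number, with differences of -1.32 and -1.19 for the numbers 1 and 2 and a smaller one for the number 3. The limma fit gave -1.17 ± 0.38 (unadjusted p 0.0135, adjusted p 0.592), and with the replicate block the SE was 0.15 and the adjusted p 0.142. The difference was -0.79 without rotated 1, -1.09 without static 1 and rotated 1 together and -0.56 without static 2 and static 3.

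The other Tubb5 probe set was the brighter one and differed little. Probe set 1416256_a_at had deposited signals of 21997, 19210 and 18620 in static and 20053, 19935 and 18519 in rotated samples. On the normalized log2 scale it stood at 14.47, 14.31 and 14.34 against 14.03, 14.16 and 14.31 (-0.21 ± 0.14, limma adjusted p 0.667). All 3 same-numbered differences were negative (-0.44, -0.15 and -0.03), but the groups overlapped the difference was -0.09 without static 1 and rotated 1 together, and the sign turned with median centring (0.11). The 2 probe sets of Tubb5 thus agreed in sign and not in size, with a 2.25-fold and a 1.15-fold lower level.

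Promoter sequence was set beside these values for Tuba4a and Tubb5, the members with the largest higher and lower difference that have an entry in the RefSeq promoter table (GRCm38.p6). An entry was matched for 8 of the 10 genes, and not for Tubb2b and Tubb6. The 250 bases before each transcription start are shown 5' to 3', with CCAAT on either strand (read as CCAAT or ATTGG) in capitals. Those of Tuba4a lie at chr1:75219295-75219544 and those of Tubb5 at chr17:35838302-35838551, both on the minus strand.
Tuba4a: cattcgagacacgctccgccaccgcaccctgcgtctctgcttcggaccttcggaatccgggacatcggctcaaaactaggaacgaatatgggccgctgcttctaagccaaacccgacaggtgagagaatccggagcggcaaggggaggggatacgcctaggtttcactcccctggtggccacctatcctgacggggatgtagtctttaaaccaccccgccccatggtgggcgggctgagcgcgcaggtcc
Tubb5: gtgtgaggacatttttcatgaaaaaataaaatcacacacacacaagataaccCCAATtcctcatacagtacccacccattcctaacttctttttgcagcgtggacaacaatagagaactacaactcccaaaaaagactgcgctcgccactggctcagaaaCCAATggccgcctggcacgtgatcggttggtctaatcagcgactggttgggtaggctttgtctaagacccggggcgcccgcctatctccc
The Tubb5 stretch holds 2 matches to CCAAT, beginning 198 and 90 bases before the start, and the Tuba4a stretch holds 0. Of the 8 matched tubulin genes 5 had a match, the most being 5 in Tubb4b, beside 33.8% of the 32851 promoter entries in the table. Neither of the printed stretches holds the letters TATAAA (12.4% of all entries) or the heat shock type pair GAANNTTC (6.69%), searched on both strands, and the letters TATAAA were found in Tubb2a alone of the 8. A match is only a match of letters and says nothing of binding.

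Tubb2b, a class II isotype best known from the developing brain, stood lower in value on both probe sets. Probe set 1449682_s_at, shared with Tubb2a-ps2, had normalized log2 levels of 8.47, 8.24 and 8.92 in static and 6.76, 7.19 and 8.13 in rotated samples. All rotated arrays lay below all static arrays, and rotated 3 came close to static 2. The difference was -1.18 ± 0.38 (limma unadjusted p 0.0125, adjusted p 0.592), -0.89 without rotated 1, -0.92 without static 1 and rotated 1 together and -1.11 without static 2 and static 3. Probe set 1452679_at, of Tubb2b alone, had levels of 8.89, 10.16 and 10.07 in static and 8.78, 9.10 and 8.96 in rotated samples. Here static 1 lay within the rotated range, and static 2 and static 3 lay about 1 log2 unit above it. The difference was -0.76 ± 0.35 (adjusted p 0.607), -1.17 without static 1, -1.09 without static 1 and rotated 1 together and 0.06 without static 2 and static 3, the arrays whose source field goes against their titles.

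Tubb2a, the close relative of Tubb2b, differed by less than its error on both probe sets. Probe set 1427347_s_at had levels of 11.51, 12.36 and 12.25 in static and 11.93, 12.35 and 11.79 in rotated samples (-0.02 ± 0.26), and its sign turned under 7 of 18 alternatives. Probe set 1427838_at stood at -0.27 ± 0.35. Without static 1 and rotated 1 together the pair stood at -0.23 and -0.48. Tubb3, the class III isotype that marks neurons and is also made by some other cells, had a single probe set, 1415978_at. Its levels were 8.81, 8.28 and 8.39 in static and 7.02, 8.12 and 8.53 in rotated samples, so that only rotated 1 stood apart. The difference of -0.61 ± 0.39 (limma adjusted p 0.658) was -0.17 without rotated 1 and -0.01 without static 1 and rotated 1 together.

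Tubb4b, a class IV isotype of dividing and ciliated cells, had 6 probe sets, of which 4 were bright enough to test. The brightest, 1423642_at, had levels of 11.92, 12.82 and 12.41 in static and 12.00, 12.75 and 12.53 in rotated samples. Its same-numbered arrays differed by 0.08, -0.07 and 0.12, less than the spread within either group, and the fitted difference was 0.04 ± 0.27 (0.02 without static 1 and rotated 1 together). The other 3 tested probe sets stood between 0.16 and 0.68 with errors of 0.43 to 0.49. Without static 1 and rotated 1 together these were 0.065 for 1438622_x_at, 0.31 for 1456078_x_at and 0.0019 for 1456470_x_at. The untested ones, 1439416_x_at and 1456031_at, had deposited signals of 1.1 to 171.5 and 1.2 to 36.1 on the 6 arrays, and differences of 0.28 and -0.09 with all arrays and -1.31 and 0.32 without that pair. Tubb6, a class V isotype expressed in many tissues, stood at -0.22 ± 0.22 on its bright probe set 1416431_at, with levels of 12.68, 13.33 and 13.28 in static and 12.58, 12.95 and 13.10 in rotated samples. Without static 1 and rotated 1 together it stood at -0.28. Its dim probe set 1446353_at stood at 0.39 ± 0.33, the opposite sign.

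Over the 13 tested beta probe sets the median difference was -0.21, beside 0.03 over all tested probe sets. With the 2 dim ones included it was -0.09, and this value ran from -0.28 without static 1 to 0.20 without static 2 and static 3, and was 0.11 with median centring. The mean level of the 13 tested beta probe sets against the static mean reached -0.37 in rotated 1 but -0.13 in rotated 2 and -0.15 in rotated 3. In the static samples it ranged from -0.22 to 0.21, so rotated 2 and rotated 3 lay within the static range. The mean of the 8 tested alpha probe sets ranged from -0.07 to 0.04 in the static samples, below all 3 rotated ones. Of these probe sets 3 are of Tuba4a and 2 of Tuba1c, and by gene 2 of 4 stood higher and 2 lower. The alpha median was 0.01 without static 1 and rotated 1 together. How often such a mean separates the groups was not tested, so this is no result about the alpha-tubulins as a group.

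Across the family, 8 genes had several tested probe sets, and in 7 of them all tested probe sets had the same sign. Tubb6 was the exception. The same share over all genes was not computed, so this agreement is no result about the tubulins. Some of these signs were not stable: that of Tuba1a 1418884_x_at turned under 6 of 18 alternatives and that of Tubb2a 1427347_s_at under 7. Groups without overlap were seen for 3 of the 21 tested probe sets, beside 15.1% of all tested. In 2 of them, both of Tuba4a, the rotated arrays were above (7.82% of all tested), and in 1, the shared one of Tubb2b, they were below (7.29%). All 3 same-numbered differences pointed the same way for 9 of 21, 4 higher and 5 lower, beside 42% of all tested. These shares are near the background and are no result about the tubulins. With the replicate block the 5 probe sets at an unadjusted p under 0.05 were 1417373_a_at and 1417374_at of Tuba4a, both of Tubb2b and 1455719_at of Tubb5.

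**Figure D3:**
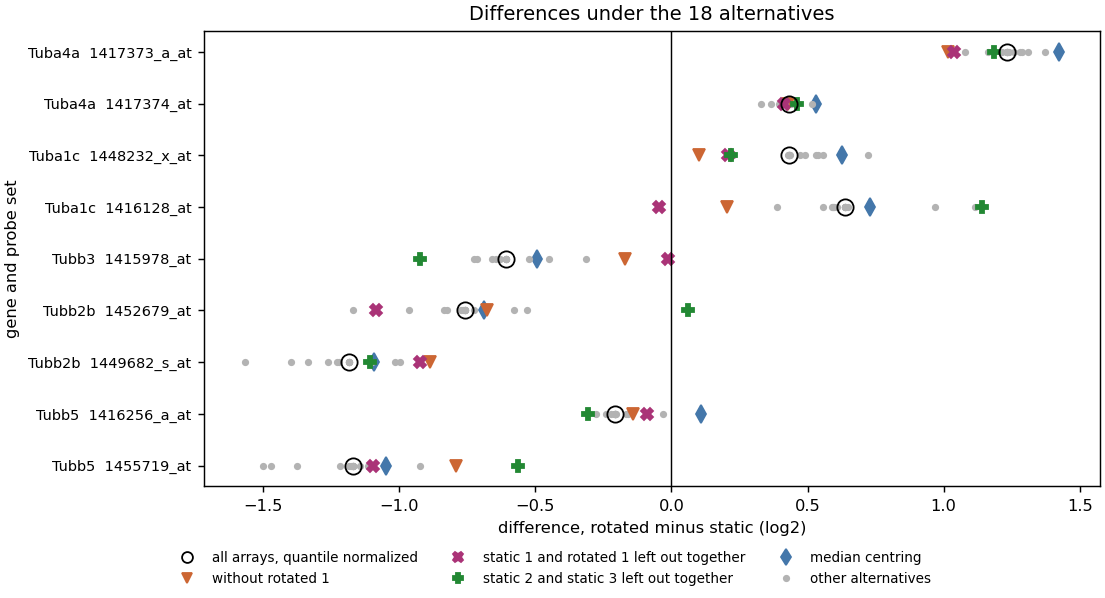
Difference between rotated and static samples (log2) for 9 probe sets of Tuba4a, Tuba1c, Tubb3, Tubb2b and Tubb5 with all arrays (open circles) and under the 18 alternatives. Symbols of their own mark the fits without rotated 1, without static 1 and rotated 1, without static 2 and static 3, and with median centring. Small grey points mark the other alternatives. Tuba4a probe set 1417373_a_at stays between 1.02 and 1.42, Tubb3 comes to -0.01 without static 1 and rotated 1, and Tubb2b probe set 1452679_at comes to 0.06 without static 2 and static 3.

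The mean of the centred levels of the 10 genes, each by its brightest tested probe set, was -0.16, 0.16 and 0.03 in static 1, 2 and 3 and -0.09, 0.09 and -0.03 in rotated 1, 2 and 3. It was lowest in static 1 and rotated 1 and highest in static 2 and rotated 2. Of 23103 other tested probe sets with 1 gene, those with the largest Pearson correlation with it over the 6 arrays were of Ndrg3 (0.995), Zfp949 (0.994), Nin (0.993), Fdps (0.993) and Idh1 (0.991). The lowest were of C2cd2 (-0.998), Wdr5 (-0.997) and Atad1 (-0.996). With 6 arrays and so many probe sets such values are a description only, and the arrays share their differences in quality.

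Genes that act on tubulin were taken as 8 lists with 120 distinct tested genes. None passed after adjustment in limma (smallest adjusted p 0.592), and 11 had an unadjusted p under 0.05, 6 higher and 5 lower, beside 8.25% of all tested probe sets. The median over the 120 genes was 0.05, beside 0.03. In value 69 of the 120 were higher and 51 lower, while 52.6% of all tested probe sets were higher. The tubulin genes outside the family list, gamma-, delta- and epsilon-tubulin among them, had 6 tested members with differences of -0.17 (Tubg2) to 0.25 (Tubb4a) and 0 at an unadjusted p under 0.05. Folding cofactors and prefoldin, which bring tubulin to the chaperonin and assemble the dimer, had 10 of 13 higher and 3 lower, with a median of 0.10 and 0 at that threshold; Pfdn2 stood at -0.50 ± 0.30, Tbca at 0.28 ± 0.18 (1 of 3 further probe sets had the opposite sign) and Pfdn5 at -0.29 ± 0.23. Without static 1 and rotated 1 together, Pfdn1, Vbp1 and Tbcc of this list turned lower and Arl2 turned higher. Genes of tubulin mRNA autoregulation, the sensor Ttc5, its partner Scaper and the CCR4-NOT deadenylase, had 4 of 11 higher and a median of -0.04. Of these Cnot6l, a catalytic deadenylase subunit, was at 0.52 ± 0.23 (adjusted p 0.606), Cnot7 at 0.44 ± 0.21 with both its other probe sets of the opposite sign, and Cnot3 at -0.54 ± 0.30.

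Microtubule nucleation genes had 9 of 21 higher, with a median of -0.07 and 2 genes each way at an unadjusted p under 0.05. Tubgcp4, a subunit of the gamma-tubulin ring complex, had levels of 9.69, 9.82 and 9.60 in static and 10.99, 10.35 and 10.10 in rotated samples (0.77 ± 0.26, limma adjusted p 0.592), and its other 2 probe sets had the same sign. Akap9, a scaffold of Golgi nucleation, stood at 0.79 ± 0.29 and Haus7, an augmin subunit, at -0.77 ± 0.27. Rotated 1 was the highest array for Tubgcp4 and Akap9, which both stood at 0.52 without it. Microtubule-binding and stabilising genes had 8 of 19 higher and a median of -0.04. The minus-end protein gene Camsap1 stood at 1.02 ± 0.32, but 1 of the 3 further probe sets had the opposite sign, at -1.05. The doublecortin-like kinase gene Dclk1 stood at -0.88 ± 0.31 (1 of 7 further ones had the opposite sign, at 0.55), and Map9 at 0.60 ± 0.31.

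Plus-end tracking genes had 12 of 17 higher and a median of 0.19. Clip4, of the CLIP family of plus-end proteins, had the largest difference of all 8 lists: its levels were 8.47, 7.20 and 7.54 in static and 5.41, 6.83 and 5.55 in rotated samples, with no overlap (-1.81 ± 0.50, limma unadjusted p 0.00498, adjusted p 0.592). The rotated mean of this Clip4 probe set, 5.93, lay under the cutoff of 5.96 for dim signals. It thus passed the filter only through the static samples, where it was higher. Groups without overlap made up 15.1% of all tested probe sets. The other Clip4 probe set had the same sign. Clasp2, a rescue factor, stood at 0.54 ± 0.22 (1 of its 2 further probe sets had the opposite sign, at -0.015) and Cep170 at -0.46 ± 0.23 (its only further one was at 0.038). Destabilising and severing genes had 10 of 13 higher, a median of 0.13 and 0 at an unadjusted p under 0.05; Fignl1 stood at -0.28 ± 0.18 (its only further probe set was at 0.069), Kif2c at 0.40 ± 0.38 with all 3 other probe sets of opposite sign, and Katnal2 at 0.29 ± 0.28. Without static 1 and rotated 1 together, Kif2c, Kif18a, Katna1 and Kif18b of this list turned lower and Katnbl1 turned higher. Tubulin-modifying enzymes had 13 of 20 higher and a median of 0.14. The polyglutamylase gene Ttll11 stood at 1.42 ± 0.55, its other probe set with the same sign. Its static levels were 6.57, 4.61 and 6.70, with static 2 far below the others. Their mean, 5.960, lay just under the cutoff for dim signals (5.962), so Ttll11 passed only through the rotated samples. The carboxypeptidase gene Agbl3 stood at -0.81 ± 0.34 (1 of 2 further probe sets had the opposite sign, at 0.61) and the glycylase gene Ttll3 at 0.98 ± 0.49. Of the 120 list genes 88 kept their sign both without rotated 1 and without static 1 and rotated 1 together, and 32 turned in at least 1 of these settings. Of the list genes whose differences are given above, those that turned without both arrays were Tubb4a (-0.092) and Kif2c (-0.050). Those that moved by over 1.5 times without turning were Tubg2 (-0.085), Pfdn2 (-0.094), Pfdn5 (-0.15), Cnot7 (0.26), Cnot3 (-0.23), Tubgcp4 (0.51), Camsap1 (0.59), Map9 (0.28), Clip4 (-1.18) and Ttll3 (0.45).

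**Figure D4:**
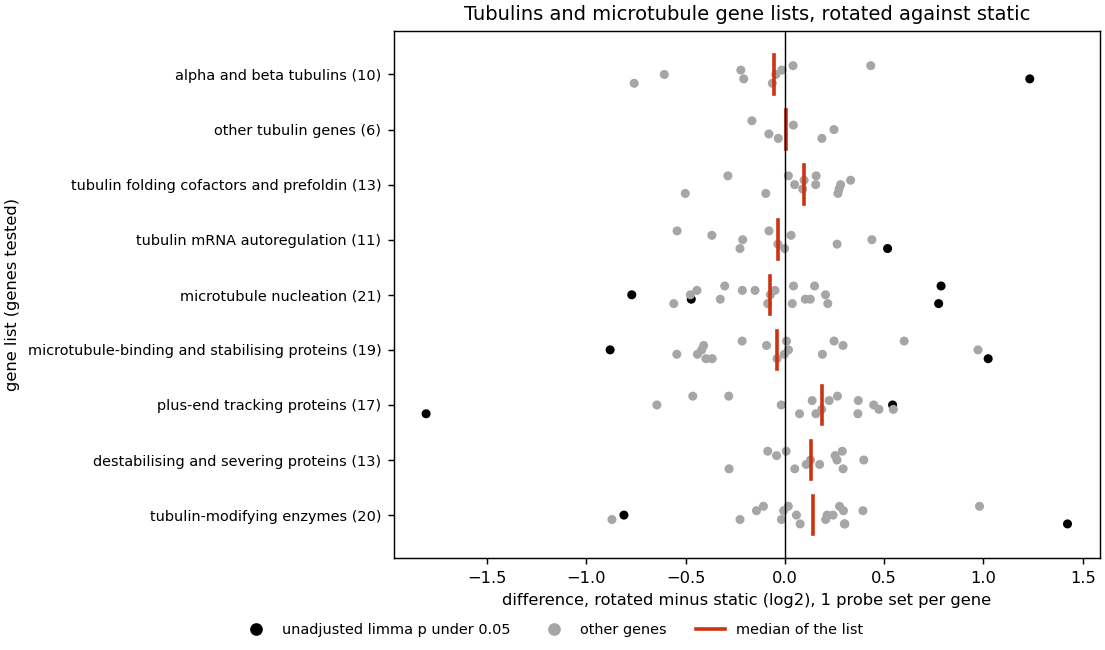
Difference between rotated and static samples (log2, 1 probe set per gene) for the 10 tubulin genes and the 8 lists of genes that act on tubulin; black points have an unadjusted limma p under 0.05 and red bars are list medians. Tuba4a (1.23) and Clip4 (-1.81) stand farthest from 0 in their rows, and the list medians lie between -0.07 and 0.19. Clip4 passed the filter on dim signals only through its static samples.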

How the data were processed

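Total RNA of 3 static and 3 rotated samples was measured on 1-colour arrays, and samples were grouped by title. The authors deposited 1 linear intensity per probe set and array; without the lowest and highest 2% each array had a mean of 500.0, so a common scaling had been applied. The array software is not given in the sources used here, nor is the summary method. Detection calls were not used, and the number of arrays limits the precision. An offset of 16.6 (their 20th percentile) was added before log2, which understates dim differences, and arrays were quantile normalized, since their medians differed by up to 85.9%. After removal of 64 control probe sets and those with a mean under 5.96 (the 40th percentile), 27022 were tested. limma 3.58.1 in R 4.3.3 (intensity trend, two-sided) gave log2 differences, rotated over static, with moderated SE and Benjamini-Hochberg adjustment at 0.05; the fit was tested on simulated data. Symbols were updated through gene identifiers to GRCm38.p6: 34945 probe sets had 1, 932 several and 9160 none. Members were all named. In lists, a gene was represented by its brightest tested probe set, and differences were given for up to 3 genes with the smallest p. The 5 most and 3 least similar probe sets were also named. The members and lists were chosen with earlier results of these data known. Same-numbered samples deviated together (correlations 0.196, 0.313 and 0.334, others -0.19 to -0.09), so the numbers may pair the samples, though the labels do not say so. Deviations from the group means cancel out in each group, so negative values among the others follow from positive same-numbered ones. The 18 alternatives covered scaling, offset, filter, variance model, array weights, the block and left-out arrays.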

Additional observations from a re-analysis of the deposited data

How the results depend on the processing

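Under each of the 18 alternatives 0 tubulin probe sets were called. Over all probe sets, 22 were called with array weights and 2 with the replicate block, none a tubulin. Of 21 tubulin probe sets, those at an unadjusted p under 0.05 were 5 with array weights, 5 with the replicate block and 1 to 6 when each array was left out in turn (1 without static 3, 6 without rotated 3). Of 120 listed microtubule genes these were 6 with median centring, 24 with array weights, 19 with the replicate block and 5 to 15 when each array was left out in turn (lowest without static 3 or rotated 1), and 7 of 103 with the stricter filter. The share of all tested probe sets at that threshold moved too: it was 5.02% with median centring, 9.46% with the stricter filter, 19.1% with array weights, 14.6% with the replicate block, 5.71% without static 3, 4.04% without rotated 1 and 12.4% without rotated 3. The alpha median was 0.13 to 0.46 when each array was left out and 0.011 without static 1 and rotated 1; with array weights it was 0.19. The beta median over all 15 probe sets was -0.28 to -0.05 when each array was left out, and turned to 0.11 with median centring and 0.20 without static 2 and static 3. In that last setting static 1 is the only static array and is assumed to vary like the others.

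Of the 23 tubulin probe sets 8 kept their sign throughout, and 42 of 414 values had the opposite sign; the cause was not tested. With the values as deposited these were Tuba1a 1418884_x_at (0.15), Tuba1b 1423846_x_at (0.20) and Tubb2a 1427347_s_at (0.045). With median centring the same probe sets stood at 0.29, 0.34 and 0.18, Tubb5 1416256_a_at at 0.11 and Tubb6 1416431_at at 0.021. With array weights they were Tuba1a 1418884_x_at (0.050), Tuba4a 1417375_at (-0.57), and Tubb4b 1438622_x_at (-0.23) and 1439416_x_at (-1.60). Without static 1 and rotated 1 they were Tuba1a 1433584_at (0.019), Tuba1b 1423846_x_at (0.0023), Tuba1c 1416128_at (-0.045), Tuba4a 1417375_at (-0.10), and Tubb4b 1439416_x_at (-1.31) and 1456031_at (0.32). Without static 2 and static 3 they were Tuba1a 1418884_x_at (0.17), Tubb2a 1427347_s_at (0.51) and 1427838_at (0.25), Tubb2b 1452679_at (0.060), Tubb4b 1456078_x_at (-0.78) and Tubb6 1416431_at (0.20). Leaving out each array in turn turned the sign of Tuba1a 1418884_x_at (-0.18 to 0.14) and 1433584_at (-0.32 to 0.028), Tubb2a 1427347_s_at (-0.28 to 0.14), and Tubb4b 1423642_at (-0.19 to 0.26), 1439416_x_at (-0.68 to 1.09), 1456031_at (-0.45 to 0.22) and 1456078_x_at (-0.16 to 0.62). The dimmest probe sets, with deposited signals down to 1.1, hold little above background.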

Other observations

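Tubb1, the beta-tubulin of platelets and megakaryocytes and no member of the 10 genes, was too dim for the main test and was singled out after its values were seen. Its deposited signals were 135.5, 77.8 and 58.4 in static 1, 2 and 3 and 12.0, 12.5 and 22.0 in rotated 1, 2 and 3, with no overlap. The rotated signals lay near the offset of 16.6. The highest signal was that of static 1, the array with raised low signals (10th percentile 22.1). In the limma fit without a filter the difference was -1.50 ± 0.43 (unadjusted p 0.0054). In that fit 7.04% of all 45037 probe sets had an unadjusted p under 0.05, and 0 passed after adjustment. Of the probe sets in the main test, which leaves Tubb1 out, 15.1% had groups without overlap in normalized levels. The 6 platelet and megakaryocyte markers, Tubb1 included, had summed deposited signals of 930 to 1504 in static and 605 to 718 in rotated samples.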
